A study of Rattus norvegicus with 6 samples.

Results

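The genes described here encode proteins of the cardiac Z-disc and its stretch-responsive partners: the LIM-only proteins Fhl1 and Fhl2, the LIM protein Csrp3, the ankyrin repeat protein Ankrd1, the PDZ-LIM proteins Ldb3 and Pdlim5, telethonin (Tcap), nebulette (Nebl), alpha-actinin 2 (Actn2) and Xirp1. Members were every probe set whose annotated symbol is 1 of these 10 genes. That gave 16 of the 15866 probe sets other than controls, covering 9 of the 10 genes, and Nebl was not analysed here. The samples were left ventricles of 6 separate rats, 3 of them normal and 3 diabetic by label, and total RNA of each was hybridised to its own Affymetrix array in 1 colour. Replicates are therefore animals. The labels name no strain, age, sex, way of producing diabetes, duration or diet for either group, and no agent given to the controls. Arrays are called normal 1 to 3 and diabetic 1 to 3 after the labels.

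The Z-disc anchors the actin filaments of neighbouring sarcomeres and carries the force of each contraction. Alpha-actinin crosslinks those filaments, telethonin caps the titin molecules that end there, and PDZ-LIM proteins such as Ldb3 and Pdlim5 bind alpha-actinin. Several of these proteins also sense strain: the muscle LIM protein Csrp3 and telethonin have been placed in a stretch sensor of the heart muscle cell, Ankrd1 and Fhl proteins bind the elastic part of titin, and Ankrd1 is well known for being induced in loaded or failing myocardium.

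Signals are deposited intensities on a linear scale, and the mean after trimming 2% from each end was 499.3 to 499.7 on all arrays. Of the 16 probe sets, 15 lay at the 91.9 percentile or above of mean signal and the dimmer Pdlim5 probe set at the 44.6, so all 16 passed the filter on dim probe sets (mean signal over 117.7). Log2 differences are diabetic minus normal on the log2(intensity + 16) scale with standard errors, and a probe set passed at a limma adjusted p under 0.05 over all 9518 tested. The number of arrays limits the precision, since 3 against 3 cannot give an exact permutation p below 0.1 for a single value.

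No probe set of these genes passed, against 2.57% of all tested probe sets (245 of 9518, 131 higher and 114 lower in diabetic hearts). At an unadjusted p under 0.05, 4 of the 16 differed, and that share is close to the 19.9% among all tested. Those 4 are both probe sets of Fhl1, higher in diabetic ventricles (background 9.57%), and both probe sets of Fhl2, lower in diabetic ventricles (background 10.3%). The same 4 are the probe sets at which the groups did not overlap, where the background is 25.8%, so neither count sets the gene group apart. The other 12 probe sets, for Csrp3, Ankrd1, Ldb3, Tcap, Pdlim5, Actn2 and Xirp1, had overlapping groups. Taking the brightest probe set of each gene, the median log2 difference of the 9 genes was 0.0035, and over all tested probe sets it was -0.013.

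**Figure D1:**
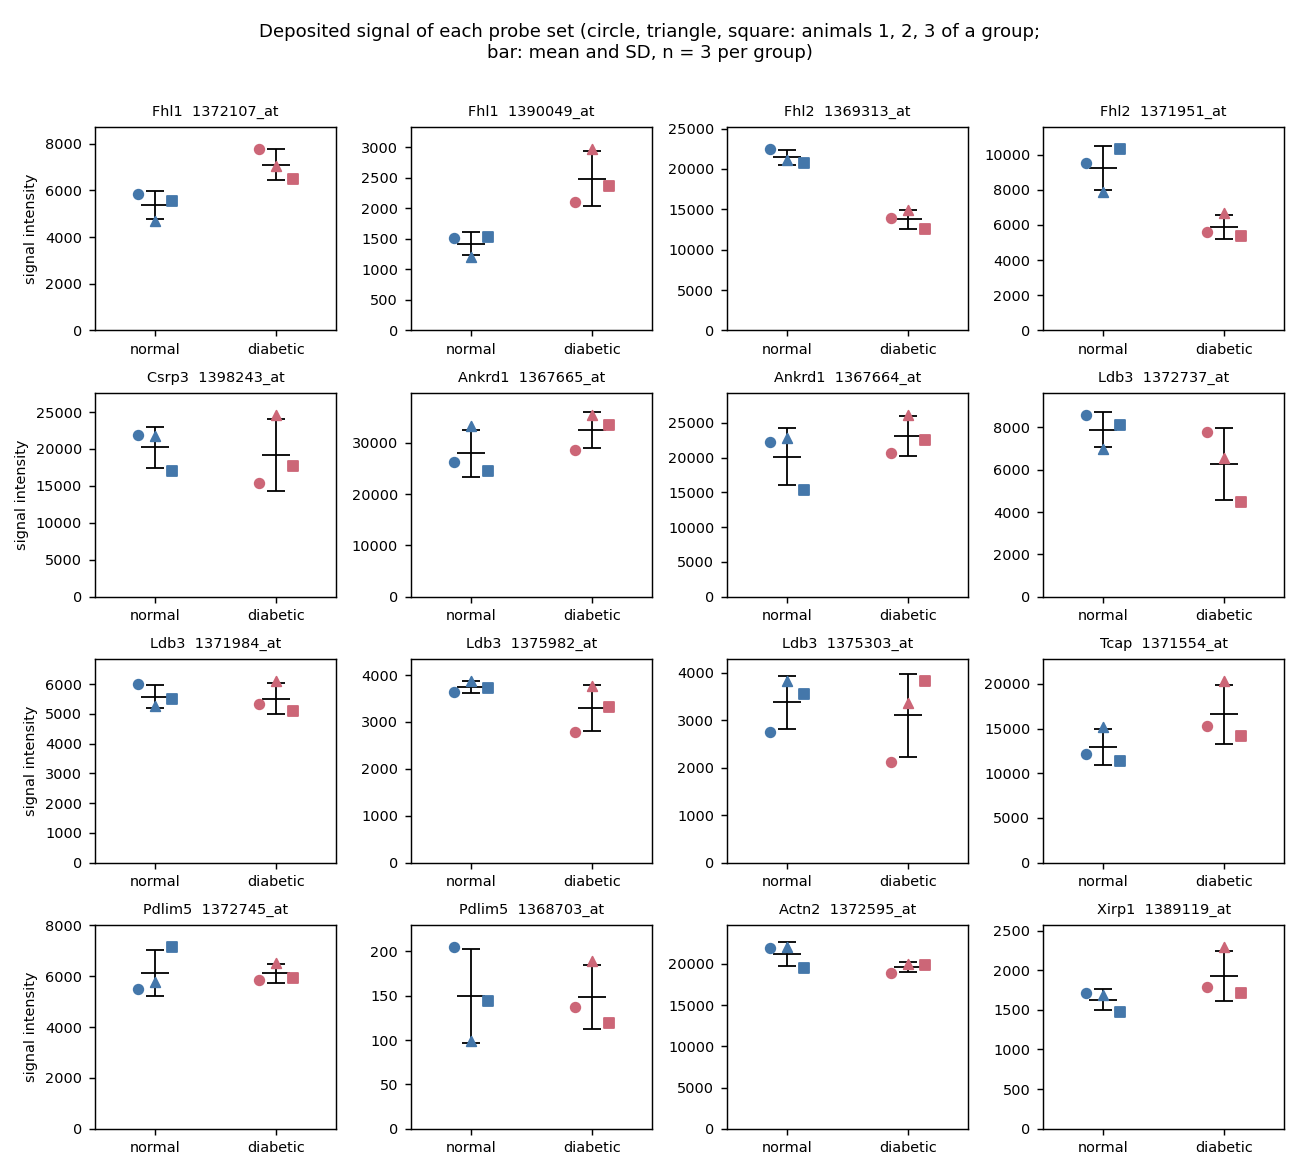
Deposited signal intensity (linear vertical axis from 0, a scale of its own in each panel) of the 16 probe sets in normal (blue) and diabetic (red) hearts, with symbols for the 3 animals of a group and bars for the mean and SD. The groups separate only in the 4 panels of Fhl1 and Fhl2, for example 1517.7 or 1537.4 against 2111 or more at the dimmer Fhl1 probe set.

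Fhl2, a LIM-only protein that tethers metabolic enzymes to titin and acts as a transcriptional cofactor, was lower in every diabetic heart. At the probe set 1369313_at its signal was 22516, 21055 and 20742 in normal 1, 2 and 3, and 13904, 14884 and 12565 in diabetic 1, 2 and 3. The 3 diabetic values sat in a narrow band well under the lowest normal value. Their mean was 64.3% of the normal mean (13784 ± 1164 against 21437 ± 947, SD, n = 3 per group). The log2 difference was -0.64 ± 0.14, ranked 265 of 9518 by p, and its adjusted p of 0.0519 missed the threshold. That value lies so near the line that the way of applying the dim filter decided it: with the filter on mean log2 values in place of mean intensities, an alternative added after seeing the data, the adjusted p was 0.0497. Over the 13 alternative settings other than leaving out an array, its adjusted p ranged from 0.00758 to 0.185.

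The other Fhl2 probe set, 1371951_at, gave nearly the same difference. It held 9546, 7892 and 10344 in the normal arrays and 5598, 6683 and 5392 in the diabetic arrays, and again no diabetic value reached the lowest normal one. The log2 difference was -0.65 ± 0.16 (adjusted p = 0.0767), or 63.6% of the normal mean. With any 1 array left out, the brighter probe set stayed between -0.70 and -0.57 and the other between -0.76 and -0.56, with adjusted p of at most 0.138 and 0.214.

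Fhl1, a relative of Fhl2 in muscle and a titin-binding part of a hypertrophy signalling complex, went the other way. Its probe set 1390049_at read 1518, 1204 and 1537 in normal hearts and 2111, 2978 and 2371 in diabetic hearts. All diabetic values were above all normal values, with diabetic 2 highest. This is a 1.74-fold difference (log2 0.80 ± 0.18, adjusted p = 0.0551), and it ranged from 0.66 to 0.91 with 1 array left out. Over the same 13 settings its adjusted p ranged from 0.0144 to 0.204. At the brighter probe set, 1372107_at, signals were 5869, 4687 and 5553 in normal and 7796, 7031 and 6499 in diabetic hearts. The groups were again apart, but the difference was smaller, 1.33-fold (log2 0.41 ± 0.15, adjusted p = 0.189). The limma 95% intervals, not adjusted for the number of probe sets, ran from 1.31-fold to 2.30-fold at the first and from 1.04-fold to 1.69-fold at the second. Whether the 2 Fhl1 probe sets read different transcripts was not tested.

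**Figure D2:**
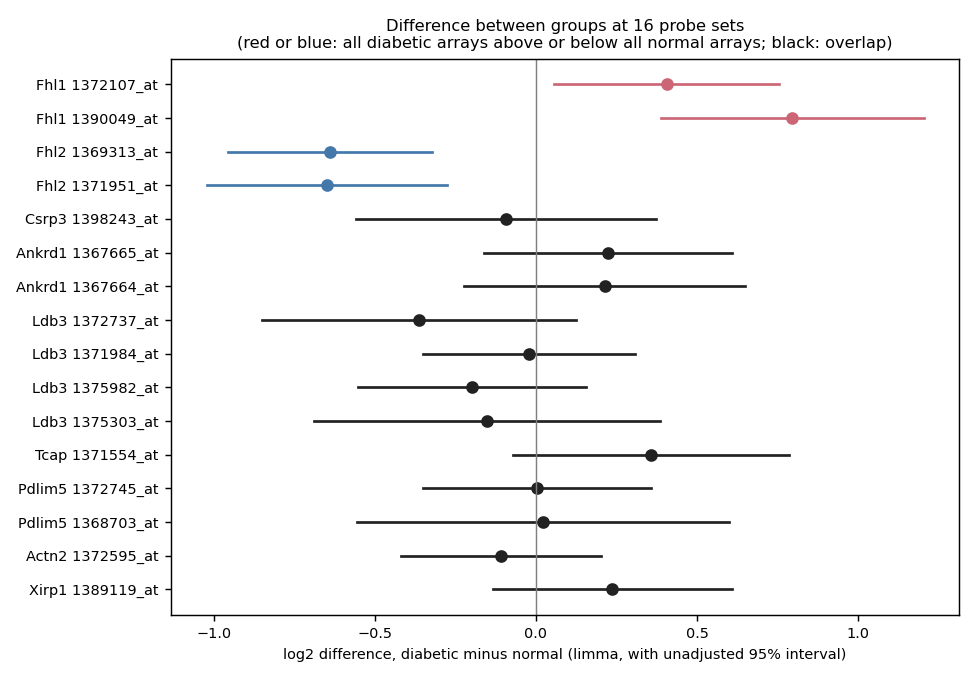
Log2 difference between diabetic and normal hearts at the 16 probe sets (points) with unadjusted 95% limma intervals (lines). Only the 4 intervals of Fhl1 (0.06 to 0.76 and 0.39 to 1.20) and Fhl2 (-0.96 to -0.32 and -1.02 to -0.28) stay on 1 side of 0, and none of the 16 passed after adjustment.

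Because the 2 genes were measured on the same arrays, their relation can be read within each heart, free of array scaling. This pair was chosen after its values were seen. The log2 signal of Fhl1 minus that of Fhl2 was compared for the 4 pairings of their probe sets. For 1390049_at against 1371951_at it was -2.64, -2.70 and -2.74 in normal hearts and -1.40, -1.16 and -1.18 in diabetic hearts. The difference of 1.44 corresponds to a 2.72-fold higher Fhl1 to Fhl2 ratio. For 1372107_at against 1369313_at the difference was 1.05, or 2.06-fold, with -1.94, -2.16 and -1.90 in normal and -0.83, -1.08 and -0.95 in diabetic hearts. The remaining pairings gave 2.08-fold and 2.70-fold. The SD among normal hearts was 0.049, 0.10, 0.14 and 0.19 in the 4 pairings, smallest in the first one given. Since each gene's groups were already apart, in opposite directions, the ratios had to separate too, so they are given as a description with no test.

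**Figure D3:**
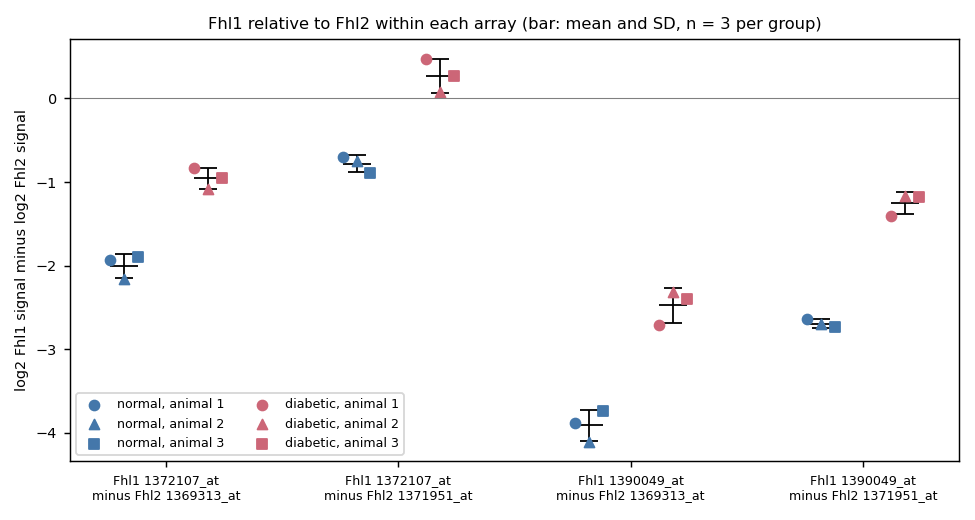
Log2 signal of Fhl1 minus log2 signal of Fhl2 in each heart, for the 4 pairings of their probe sets, with the mean and SD of each group (n = 3). The level of each pairing depends on its probe sets and carries no meaning of its own; the difference between diabetic and normal hearts, from 1.05 to 1.44, is what the plot compares.

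RefSeq promoter windows are shown for Fhl1 and Fhl2 because they are the members whose groups separate, in opposite directions. Each window holds 250 bases before and 50 after an annotated start (build GRCr8), on the gene's strand from 5′ to 3′, and each gene has 2 starts. Capitals mark matches, on either strand, to 4 sequences tied to muscle gene control: the CArG box bound by serum response factor, the MEF2 site, the M-CAT element CATTCC, and the GATA site AGATAA. In the first Fhl2 window the M-CAT and MEF2 matches adjoin, without sharing a base, and print as 1 run of capitals.
Fhl2 start A, chr9:52954491-52954790, minus strand: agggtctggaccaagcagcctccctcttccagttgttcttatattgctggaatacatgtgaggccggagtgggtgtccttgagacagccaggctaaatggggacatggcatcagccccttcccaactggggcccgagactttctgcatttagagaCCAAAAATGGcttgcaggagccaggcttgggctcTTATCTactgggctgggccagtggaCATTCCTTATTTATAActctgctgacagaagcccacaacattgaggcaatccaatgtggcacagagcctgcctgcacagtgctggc
Fhl2 start B, chr9:52923277-52923576, minus strand: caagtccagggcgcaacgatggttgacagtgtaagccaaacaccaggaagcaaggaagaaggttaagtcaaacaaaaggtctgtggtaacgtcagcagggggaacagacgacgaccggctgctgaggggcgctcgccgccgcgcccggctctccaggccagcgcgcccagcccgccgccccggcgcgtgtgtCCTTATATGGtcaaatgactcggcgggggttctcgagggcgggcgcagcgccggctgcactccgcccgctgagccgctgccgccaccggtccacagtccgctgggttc
Fhl1 start A, chrX:139638246-139638545, plus strand: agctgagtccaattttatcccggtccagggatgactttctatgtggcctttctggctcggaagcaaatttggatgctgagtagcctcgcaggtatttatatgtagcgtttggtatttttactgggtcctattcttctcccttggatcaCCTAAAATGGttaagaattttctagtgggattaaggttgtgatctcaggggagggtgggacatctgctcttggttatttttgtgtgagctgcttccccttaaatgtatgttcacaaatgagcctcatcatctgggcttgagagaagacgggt
Fhl1 start B, chrX:139645222-139645521, plus strand: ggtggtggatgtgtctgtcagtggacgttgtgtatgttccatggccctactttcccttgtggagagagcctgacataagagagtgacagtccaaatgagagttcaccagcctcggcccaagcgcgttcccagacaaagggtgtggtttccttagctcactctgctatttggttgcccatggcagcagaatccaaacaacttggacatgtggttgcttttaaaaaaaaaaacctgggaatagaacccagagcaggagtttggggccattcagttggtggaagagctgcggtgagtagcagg
A CArG match stood in 3 of these 4 windows. It was CCAAAAATGG from 95 to 86 bases upstream of Fhl2 start A, CCTTATATGG from 58 to 49 bases upstream of Fhl2 start B, and CCTAAAATGG from 102 to 93 bases upstream of Fhl1 start A. Fhl2 start A also held a GATA match, printed as TTATCT because AGATAA lies on the opposite strand. It held as well an M-CAT match and the MEF2 match TTATTTATAA from 30 to 21 bases upstream. Fhl1 start B held no match to the 4 sequences. Windows were found for 7 of the 10 genes (11 windows, some overlapping), and not for Csrp3, Ankrd1 or Tcap. Of these, 5 windows of 4 genes (Fhl1, Fhl2, Ldb3 and Nebl) held a CArG match, against 1.64% of all 33469 windows. MEF2 matches were in 3 of the 11 (3.29% of all windows), GATA matches in 3 (11.6%) and the M-CAT element in 1 (14.2%). The MEF2 and GATA matches each belong to 2 genes, Fhl2 and Xirp1, because overlapping Xirp1 windows hold the same sites. Both genes, which differed in opposite directions, hold a CArG match, and which start the ventricle uses was not tested.

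The stretch sensor genes were bright in every heart, and none of their probe sets passed. Ankrd1, the titin-associated repressor induced by load, read 26265, 33214 and 24512 in normal and 28630, 35507 and 33448 in diabetic hearts at 1367665_at. Normal 2 was above diabetic 1, though below diabetic 2 and 3, so the groups overlapped. The log2 difference was 0.22 ± 0.17 (adjusted p = 0.514), with an interval from 0.89-fold to 1.52-fold. The second Ankrd1 probe set, 1367664_at, had 22258, 22804 and 15380 against 20605, 26190 and 22528, a log2 difference of 0.21 ± 0.19 (adjusted p = 0.59). Both put diabetic 2 highest and normal 3 lowest of the 6 hearts, and without normal 3 the difference was 0.13 and 0.029.

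Csrp3, the muscle LIM protein, had 21824, 21801 and 16973 in normal and 15335, 24634 and 17632 in diabetic hearts. Diabetic 1 and 2 were the lowest and the highest of all 6, and the diabetic values varied by 25.2% of their mean against 13.8% in normal hearts. The log2 difference was -0.09 ± 0.21 (adjusted p = 0.853), and without diabetic 1 it was 0.055. Tcap, which caps titin at the Z-disc, had 12179, 15168 and 11333 in normal and 15291, 20337 and 14172 in diabetic hearts. Only normal 2 exceeded a diabetic value, that of diabetic 3. Its log2 difference of 0.36 ± 0.19 did not pass (adjusted p = 0.331), with an interval from 0.95-fold to 1.72-fold, and was 0.20 without diabetic 2.

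Xirp1, an actin-binding repeat protein of the intercalated disc whose gene responds to MEF2 factors, read 1716, 1687 and 1477 in normal and 1791, 2294 and 1711 in diabetic hearts. Diabetic 3 lay just under normal 1, and diabetic 2 stood above the rest. The log2 difference of 0.24 ± 0.16 did not pass (adjusted p = 0.466), and without diabetic 2 it was 0.11.

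Among the structural proteins, Actn2, the alpha-actinin of the cardiac Z-disc, varied little from heart to heart. Its signal was 21955, 22069 and 19496 in normal and 18912, 20015 and 19901 in diabetic hearts. The diabetic hearts varied by 3.09% of their mean, and the log2 difference was -0.11 ± 0.14 (adjusted p = 0.715). The interval, from 0.75-fold to 1.15-fold, bounds how far the groups could differ at this probe set without establishing that they are equal.

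Ldb3, also called cypher or ZASP, had 4 probe sets, which did not follow each other across the hearts. At the brightest, 1372737_at, signals were 8603, 6978 and 8099 in normal and 7785, 6570 and 4458 in diabetic hearts, and diabetic 3 stood well below the rest. The log2 difference there was -0.36 ± 0.21 (adjusted p = 0.392), and -0.14 without diabetic 3. At 1375303_at, by contrast, diabetic 3 was the highest diabetic heart and diabetic 1 the lowest, with 2123, 3353 and 3826 against 2754, 3826 and 3549 in normal hearts. That probe set differed by -0.15 ± 0.24 (adjusted p = 0.783). The others, 1375982_at and 1371984_at, differed by -0.20 ± 0.16 and -0.02 ± 0.14 (adjusted p = 0.53 and 0.958). All 4 estimates were negative and none passed. Which Ldb3 transcripts each probe set reads was not tested.

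Pdlim5, also known as ENH, a PDZ-LIM scaffold for protein kinase C at the Z-disc, showed the smallest difference. Its brighter probe set, 1372745_at, read 5491, 5751 and 7149 in normal and 5854, 6535 and 5945 in diabetic hearts, a log2 difference of 0.0035 ± 0.16 (adjusted p = 0.995). The interval ran from 0.79-fold to 1.28-fold. The dim probe set 1368703_at, with 99.3 to 204.9 in normal and 119.3 to 189.3 in diabetic hearts, gave 0.02 ± 0.25 (adjusted p = 0.976).

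Within the diabetic group, 1 heart stood above the others over much of the gene group. Diabetic 2 held the highest diabetic value at 13 of the 16 probe sets, while over all tested probe sets it did so at 30.1%. It was never the lowest, a place shared by diabetic 1 and diabetic 3 with 8 probe sets each. The exceptions were the brighter Fhl1 probe set and 2 Ldb3 probe sets. Among ventricular cardiomyocyte markers, diabetic 2 was likewise the highest diabetic heart for 10 of 11 genes, and their summed signal was 357170 there against 283829 and 315194 in diabetic 1 and 3. Across all 6 hearts that sum was lowest in diabetic 1 and highest in normal 1 (380993), and normal 3 had 307036. How much of the spread in these genes goes with that sum was not tested. Without diabetic 2, Fhl1 at 1390049_at was 0.66, Tcap 0.20 and Xirp1 0.11 on the log2 scale, and Fhl2 at 1369313_at was -0.70.

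**Figure D4:**
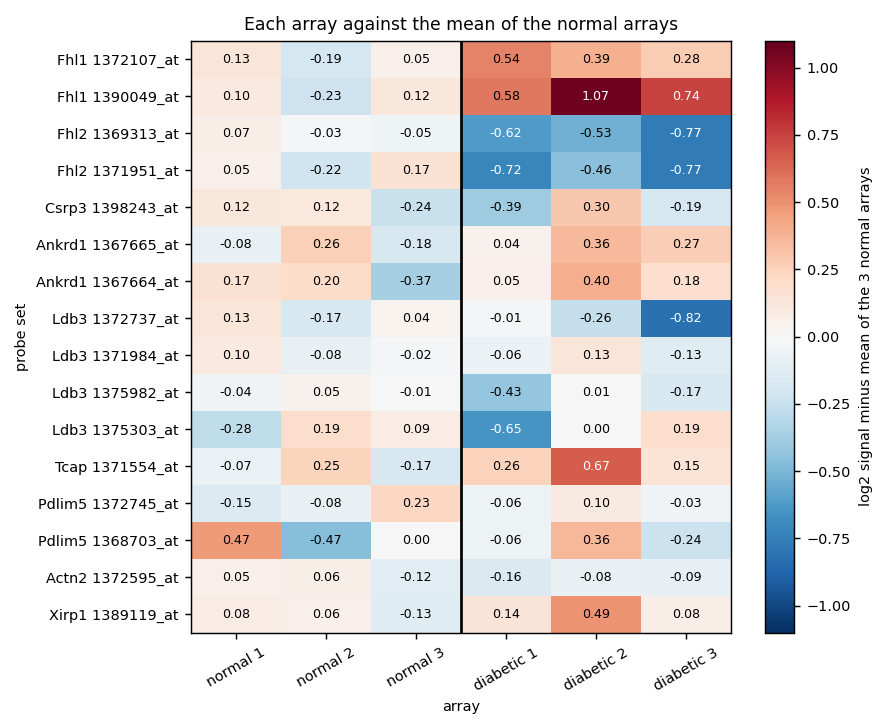
Log2 signal of each probe set in each heart minus the mean of the 3 normal hearts (red higher, blue lower, values printed in the cells). The Fhl1 rows are red and the Fhl2 rows blue in all 3 diabetic hearts, while diabetic 2 is the reddest diabetic column for Csrp3, Ankrd1, Tcap and Xirp1 (0.30 to 0.67).

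A wider list of 43 gene symbols, for proteins at or near the Z-disc and I-band, gave 3 genes that passed among 34 tested, at the brightest tested probe set of each. Over all tested probe sets 2.57% passed. The list was chosen with earlier results of these data known, so the count is a description and no test. Pdlim2, a PDZ-LIM protein also active outside muscle, rose from 179.4, 184.2 and 125.4 to 432, 691 and 592, which is 3.27-fold (log2 1.71 ± 0.21, adjusted p = 0.00721). Trim63, the muscle ubiquitin ligase MuRF1, rose from 1165, 1127 and 1068 to 1868, 2173 and 2321 (log2 0.91 ± 0.15, adjusted p = 0.0168). Jph2, which joins the sarcoplasmic reticulum to the T-tubule near the Z-disc, fell from 2941, 2548 and 3638 to 1314, 1407 and 1245 (log2 -1.18 ± 0.17, adjusted p = 0.0108). For these genes every diabetic heart lay outside the normal range. Pdlim2 and Jph2 passed with any 1 array left out, and Trim63 was lost without normal 2 or 3 or diabetic 2 or 3 (adjusted p of at most 0.0674).

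The next 4 by p did not pass, though their groups were apart. Trim54, the related MuRF3 that binds microtubules at the Z-disc, was at 0.74 ± 0.18 (adjusted p = 0.0691). The small heat shock protein Hspb1 was at -0.71 ± 0.18 (0.0767), Csrp2, a LIM protein of smooth muscle and close relative of Csrp3, at 0.88 ± 0.23 (0.0811), and Synpo2 at 0.79 ± 0.21 (0.087). Relatives of the described genes are given here with a choice made after their values were seen. Fhl3, the third muscle member of the Fhl family, read 960, 732 and 1198 in normal and 710, 391 and 382 in diabetic hearts (log2 -0.97 ± 0.27, adjusted p = 0.0949). It was lower, as Fhl2 was, with diabetic 1 just under the lowest normal heart. Ankrd23, of the same titin-binding family as Ankrd1, read 484, 651 and 256 against 807, 2132 and 892 (log2 1.38 ± 0.41, adjusted p = 0.113), with 1 heart, diabetic 2, far above the rest, and 0.94 without it.

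In the wider Z-disc and I-band list, 13 of 34 genes were higher in every diabetic heart than in every normal heart, where the background is 12.1%, and 5 were lower (13.7%). The wider lists were chosen with earlier results of these data known. They take the brightest probe set of each gene, while the background takes all tested probe sets, so these shares were not tested against it. The median log2 difference was 0.15. Diabetic 2 was the highest diabetic heart for 18 of the 34. Of 19 tested costamere and integrin-linked genes, which tie the Z-disc to the cell membrane and matrix, none passed, 1 was higher and 7 lower without overlap, and the median was -0.16. One of the 7, vinculin (Vcl), was lower at its brightest probe set (log2 -0.26 ± 0.14, adjusted p = 0.334) and higher without overlap at another (0.39 ± 0.17, adjusted p = 0.237), so its direction depends on the probe set. The smallest p values belonged to Lims1 (PINCH, log2 -0.69 ± 0.15, adjusted p = 0.0526, but -0.12 at a second probe set with overlapping groups), Itgb1bp2, the muscle integrin-binding protein melusin (-0.66 ± 0.17, 0.0815), the focal adhesion kinase gene Ptk2 (-0.51 ± 0.14, 0.0901) and paxillin, Pxn (0.44 ± 0.14, 0.128). Melusin read 2502, 2556 and 2982 in normal and 1581, 2057 and 1467 in diabetic hearts, so the groups were apart.

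Among the 11 tested genes of a list induced by stretch, none passed, 1 was higher without overlap, and the median was 0.23. The lowest p values were those of endothelin 1, Edn1 (log2 0.66 ± 0.23, adjusted p = 0.164), Timp1 (-0.50 ± 0.20, 0.213), skeletal alpha-actin, Acta1 (0.46 ± 0.22, 0.3), and Ccn2, or CTGF (0.57 ± 0.31, 0.352). Ccn2 read 1648, 4167 and 2991 in diabetic hearts against 1827, 2224 and 1545 in normal ones, with diabetic 2 again the highest. The list held the natriuretic peptide gene Nppb but not Nppa, which is also re-expressed in stressed ventricle and is given below with the atrial markers. Nppa passed, higher in diabetic hearts (log2 2.76 ± 0.18, limma adjusted p = 0.00068), so the absence of calls holds only for the 11 genes listed.

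**Figure D5:**
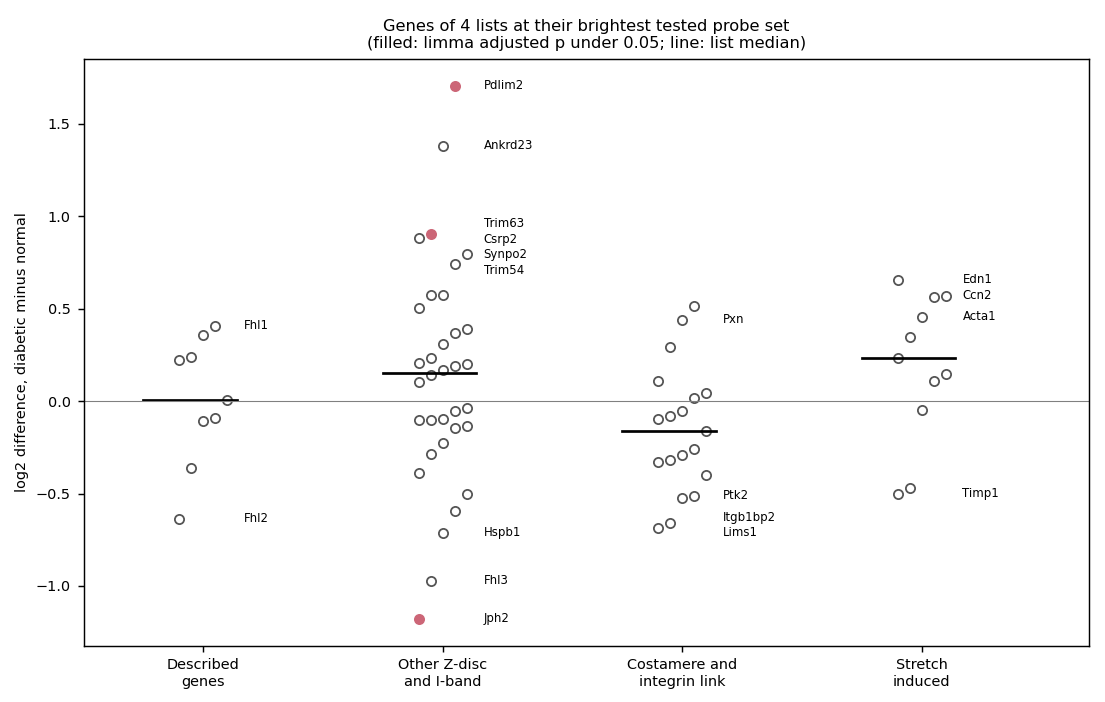
Log2 difference between diabetic and normal hearts of each gene, at its brightest tested probe set, for the described genes (9), other Z-disc and I-band genes (34), costamere and integrin-linked genes (19) and stretch-induced genes (11). Filled points passed at an adjusted p under 0.05 (Pdlim2, Trim63 and Jph2), and horizontal lines are medians of 0.0035, 0.15, -0.16 and 0.23.

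Markers of cell types were measured beside these genes. The ventricular light chain gene Myl2 and the cardiac troponin genes Tnni3 and Tnnt2, active in both chambers, had group mean signals of 27299 to 47118, while the skeletal muscle factor Myod1 was at 5.03 and 7.17, and 7 of 9 skeletal muscle markers lay under the dim filter. None of 11 ventricular cardiomyocyte markers passed, and 10 of them had negative log2 differences (median -0.16). Of the 11, 3 were lower without overlap (Ryr2, Ckm and Mybpc3), where the background is 13.7%. The summed signal of the 11 overlapped between groups (307036 to 380993 in normal, 283829 to 357170 in diabetic hearts). Of 11 fibroblast markers, 4 passed, all lower in diabetic hearts (Col3a1, Col1a2, Lum and Col1a1), and 10 had negative differences. Mgp was also lower without overlap (log2 -0.63, limma adjusted p = 0.14), which makes 5 of the 11, where the background is 13.7%. Dpt was at -0.36 with overlap, and at -0.70 without overlap at a second, dimmer probe set. Tcf21 (-0.29) and Pdgfra (-0.24) overlapped, and Dcn (-0.01), Fn1 (-0.07) and Vim (0.17) differed little. The summed signal of the 11 was 54558 to 64325 in normal and 36353 to 42894 in diabetic hearts. Of 8 atrial markers only Nppa, the natriuretic peptide gene also re-expressed in stressed ventricle, passed, from 3671 ± 359 in normal to 25244 ± 4960 in diabetic hearts (SD, n = 3 per group, log2 2.76 ± 0.18, adjusted p = 0.00068). The atrial sum was 15646 to 18953 in normal and 35579 to 45433 in diabetic hearts, and without Nppa 12385 to 15018 and 15846 to 16082. That remainder was mostly Pam, at 11007 to 13827 in normal and 13936 to 14490 in diabetic hearts (limma adjusted p = 0.484). Of the 8 atrial markers, 2 were higher without overlap (Nppa and Pam) and 1 lower (Gja5). None of 7 smooth muscle markers passed, and their sum of 13440 to 14657 in normal and 15145 to 16720 in diabetic hearts was mostly desmin (Des), a muscle filament protein that is also in the wider Z-disc list. Without Des the other 6 summed to 4714 to 5466 in normal and 4119 to 4638 in diabetic hearts, lower without overlap. Of these 6, Rgs5 alone was lower without overlap (log2 -0.56, limma adjusted p = 0.117). The differences were negative for 4 of them and positive for Smtn (0.19) and Notch3 (0.03). Endothelial sums overlapped (9530 to 9915 and 8841 to 9924), while 1 of 8 markers, Tie1, passed and was lower (log2 -0.94, adjusted p = 0.0237). Without passing, Emcn was also lower without overlap (-0.30, adjusted p = 0.283) and Pecam1 higher (0.68, adjusted p = 0.153). That makes 2 of 8 lower and 1 higher without overlap, where the background is 13.7% and 12.1%. None of 6 macrophage markers passed, all with positive differences, and their sums overlapped (3419 to 4807 and 4074 to 6292), as did those of 3 blood markers, none passing (19586 to 25936 and 16166 to 25011). The 3 controls for beta-actin had log2 differences of -1.01 to -0.76 with no overlap of groups, and the 3 for Gapdh overlapped. The part of these markers in the Fhl1 and Fhl2 differences was not tested, and in bulk tissue fewer cells of a type and less RNA per cell cannot be told apart.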

How the data were processed

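The authors deposited 1 signal intensity per probe set and array from single-colour Affymetrix arrays, prepared by the manufacturer's standard steps per the labels. The software and normalization behind them were not given in the sources used here. Because deposited intensities share a common trimmed mean, they were used without further scaling. Probe sets were named from the platform annotation, updated by gene number through a RefSeq gene table (GRCr8, names only): 12783 of 15866 had 1 gene, 312 several and 2771 none, and 57 control probe sets were left out. Intensities were turned into log2(intensity + 16). Probe sets above the 40th percentile of mean intensity over 6 arrays were tested (9518) by a linear model with moderated variances (limma 3.58.1, run in R 4.3.3; two-sided, no covariates, Benjamini-Hochberg over all tested). The code was tested on simulated data. The members and gene lists were chosen with earlier results of these data known. Named from the wider lists were the genes that passed and the next 4 by p, at the brightest tested probe set. Promoter windows came from RefSeq (GRCr8) and were searched on both strands. Alternatives covered the pseudocount, scaling, dim filter, variance prior, array weights, replicate block, threshold and each array left out. Figures used matplotlib 3.10.9.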

Additional observations from a re-analysis of the deposited data

How the results depend on the processing

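In the main analysis no member probe set passed. The count was 3 (1 Fhl1 and both Fhl2 probe sets) with a pseudocount of 64, with the filter at the 60th percentile, with an intensity trend, at an adjusted p under 0.1, and in an unfiltered fit with an intensity trend added after seeing the data. It was 2 with array weights, and 1 (Fhl2) with quantile normalization and with the added filter on mean log2 values, and stayed at 0 with any 1 array left out. Fhl1 at 1390049_at, for example, had an adjusted p of 0.0144 with the trend and 0.204 with no filter. Over all probe sets the 245 calls became 386 (pseudocount 64), 18 (no filter), 429 (60th percentile), 525 (trend), 371 (trend without filter), 661 (adjusted p under 0.1) and 95 to 180 with an array left out. The 3 other Z-disc and I-band genes became 5 with a pseudocount of 64 and with the trend without filter, 0 with no filter, 6 at the 60th percentile, 8 with the trend and at an adjusted p under 0.1, and 2 to 4 with an array left out. Costamere calls went from 0 to 1 with a pseudocount of 64, 2 at the 60th percentile and with the trend in either form, and 3 at an adjusted p under 0.1. The cause was not tested. Signs turned for Pdlim5 at 1372745_at with quantile normalization (-0.049). With arrays left out, values spanned 0 for Pdlim5 at 1372745_at (-0.071 to 0.12) and at 1368703_at (-0.21 to 0.26), Ldb3 at 1371984_at (-0.10 to 0.035) and at 1375303_at (-0.32 to 0.10), and Csrp3 (-0.29 to 0.055). The other 11 member probe sets kept their sign in every alternative run.

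The labels number animals 1 to 3 in both groups without saying that a number is shared. Deviations of same-numbered arrays correlated at 0.0821, 0.0294 and 0.0134 over 9518 probe sets, and 4 of 6 arrays correlated best with their own number. These small positive values do not decide whether numbers are shared. The samples were not taken as paired because the labels state no pairing. With the replicate number as a block, 163 probe sets passed and no member probe set did.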
